A study of Glycine max with 9 samples.

Results

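Soybean roots transcribed a broad set of regulators that carry a family name as gene symbol. After 40 min with sucrose, those that differed from the controls by the test were higher in some families and lower in others. Of the 119 such genes that could be tested, 34 (28.6%) rose at 40 min, where 14.7% of all genes tested did, and 13 (10.9%) fell, a share near the 8.86% of all genes. Heat shock factors made up most of the rises (18 of 32 tested) and growth-regulating factors most of the falls (9 of 17 tested). Both counts fell when certain single libraries were left out, and a difference between families was not tested. The genes were taken by symbol alone, as those beginning with ERF, DREB, AP2, BHLH, HSF, DOF, GRAS, TCP, NFY, NF-Y, HDZ, GATA, SPL, SBP, TGA, TIFY, JAZ, GRF, SCOF or ZFP. This gave 146 symbols on 145 gene identifiers of the 62645 in the table, since GRF18 and GRF19 share 1 identifier. No symbol began with GRAS, TCP, NFY, HDZ, GATA, TIFY or JAZ. Most transcription factors of soybean carry only a locus number as symbol and so are not covered by these names.

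The plants were Glycine max cultivar Williams 82, grown for 4 weeks in a half-strength Hoagland nutrient solution. Sucrose was added to that solution to 10 mM, and root sections of about 2 cm that included the tip were taken after 20 min (t20) or 40 min (t40), and from plants without sucrose (t0). Each time had 3 libraries, made with a stranded mRNA kit from the total RNA of 1 plant each and numbered here as in the table (t0 has libraries 1 to 3, t20 has 4 to 6 and t40 has 7 to 9). There was no plant kept for 20 or 40 min without sucrose and no other solute, so time in the experiment and sucrose cannot be told apart.

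The families do different work in plants. Heat shock factors (HSF) bind heat shock elements and switch on chaperone genes, and several also act in oxidative stress. AP2, ERF and DREB proteins share the AP2 DNA-binding domain, where ERFs answer ethylene and jasmonate and DREBs bind the dehydration-responsive element of cold and drought genes. TGA factors are bZIP proteins that bind as-1 elements, work with NPR1 in salicylic acid signalling and control detoxification genes. NF-YA and NF-YC are subunits of the trimer that binds CCAAT boxes. Growth-regulating factors (GRF) promote cell proliferation in young organs and are targets of miR396, SPL9 proteins are targets of miR156 in the timing of development, and many NF-YA transcripts are targets of miR169. Basic helix-loop-helix proteins (bHLH) include regulators of iron uptake, among them soybean bHLH57 and bHLH300.

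Expression was read as FPKM (fragments counted relative to the length of the transcript and the size of the library), summed over the transcripts of each gene identifier. The summed FPKM of the libraries lay between 638361 and 720621, and between 28893 and 32836 genes reached an FPKM of 1 in each. FPKM does not hold the read depth, and no counting error is given here. Markers of 3 other tissues or cell types were looked up. Of 16 nodule genes 10 were at 0 in every library, and the summed FPKM of the list was 96.8 to 435, most of it from NOD33 (87.9 to 430 FPKM), which did not pass at either time. The summed FPKM of 9 genes of green tissue lay between 109 and 695, highest in libraries 6 (695) and 1 (355). The 3 CYCB1 cyclins of dividing cells were expressed in every library, and no gene had PLT, SHR, SCR or WOX5 as symbol. In such bulk samples fewer cells of a type and less RNA per cell cannot be told apart.

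Tests took genes with 3 or more libraries at an FPKM of at least 1, which 119 of the 145 identifiers and 32763 genes in all did. Differences are on the log2(FPKM + 1) scale, on which changes of genes of low FPKM come out too small, and a gene passed with a Benjamini-Hochberg adjusted p under 0.05 over all genes tested (limma, all 9 libraries in 1 fit). Both comparisons with t0 share the same 3 control libraries.

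At t40, 34 of the 119 members (28.6%) were higher and 13 (10.9%) lower than at t0, where 14.7% of all genes tested passed as higher and 8.86% as lower. The share of lower members was thus near that of all genes, and the share of higher members was not. The median log2 fold change of the members was 0.40, against 0.06 over all genes. The 3 libraries at t40 all lay above the 3 controls for 56 members and below them for 22, where 26.6% and 20.8% of all genes did so. With quantile normalization, which moves the median of all genes to -0.11, the members passing were 27 higher and 20 lower (57.4% higher, in place of 72.3%), and among all genes that passed the higher share was 42.1% in place of 62.4%. The counts rested on single libraries. Without library 8 there were 13 higher and 3 lower members, without library 9 14 and 7, and without library 7 22 and 3. Without control library 2 there were 17 and 3, and without control library 3 18 and 5. Without library 6 of t20, which shares in the estimate of the spread, there were 31 and 5. At an unadjusted p under 0.05, 51 members were higher and 24 lower, where 22.8% and 16.3% of all genes were. When an absolute log2 fold change of 1 or more was asked for as well, 25 were higher and 12 lower, where 11.7% and 4.11% were.

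**Figure D1:**
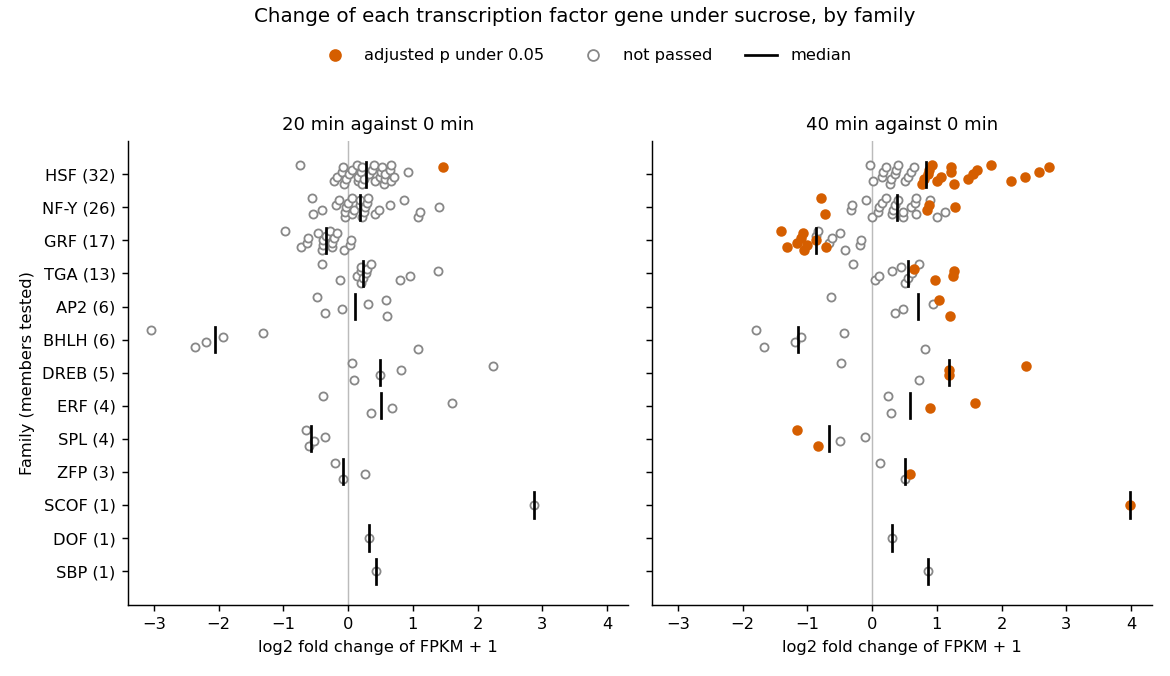
Change of all 119 members tested, by family. Each circle is 1 gene, its log2 fold change of FPKM + 1 against 0 min on the horizontal axis (20 min left, 40 min right), filled where the adjusted p was under 0.05, with a black bar at the family median. At 40 min the medians are 0.83 for HSF and -0.86 for GRF, and at 20 min 1 gene passed.

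Heat shock factors were the largest family and the one with the most rises. At t40, 18 of the 32 tested were higher than at t0 and none was lower, with a median log2 fold change of 0.83, and 31 of 32 had a positive value. The count was 18 and 0 with median-ratio scaling and 16 and 0 with quantile normalization, and it was 8 without library 9, 9 without library 8 and 10 without control library 2 or 3. The family's summed FPKM was 315 ± 40.8 at t40 and 171 ± 28.8 at t0 (SD, n = 3 each).

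The steepest rises were in heat shock factors that were nearly silent in the controls. HSF-06 (chromosome 3, positions 36307576 to 36311071 of Glycine_max_v4.0) had 0.763, 0.167 and 0.438 FPKM at t0, 2.84, 0.303 and 1.24 FPKM at t20, and 8.20, 7.52 and 9.97 FPKM at t40. All t40 libraries lay above all others, and library 5 at t20 stayed within the controls. The log2 fold change at t40 was 2.73 ± 0.34 (SE, adjusted p = 0.00126). HSF-05 (chromosome 1, positions 48818636 to 48820969) was listed at 0, 0.0579 and 0 FPKM at t0, and had 1.24, 0 and 0.893 FPKM at t20 and 3.64, 4.13 and 8.50 FPKM at t40. It rose at t40 by 2.58 ± 0.33 on the log2 scale (adjusted p = 0.00139). HSF-27 (chromosome 13, positions 28786083 to 28788441) was listed at 0 in all 3 controls, at 0.653, 0 and 0.373 FPKM at t20, and at 3.62, 2.67 and 6.96 FPKM at t40 (adjusted p = 0.00114 for t40 against t0). It was the single member that reached an FPKM of 1 in t40 libraries only, so it entered the test through the group in which it was high. HSF-05, HSF-06, HSF-19, HSF-20, HSF-36, DREB1-like and AP2-6 reached that level in no control either. They entered the test through libraries with sucrose, in which they were high. The counts of higher members include all of these. NF-YA10 and NF-YC12, which did not pass, also reached that level in no control. They are in the counts of members whose libraries with sucrose all lay above the controls.

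HSF-19 (chromosome 10, positions 46693590 to 46694880) had already risen at t20. Its FPKM was 0.388, 0.311 and 0.440 at t0, 2.7, 1.59 and 4.8 at t20, and 4.27, 5.61 and 5.57 at t40. Neither group with sucrose overlapped the controls, and the log2 fold change was 1.47 ± 0.27 at t20 (adjusted p = 0.0411) and 2.15 ± 0.27 at t40 (adjusted p = 0.00122). Part of its sum came from a transcript with no gene name, which added to libraries 5, 6 and 8. On the named transcript alone the t20 value was 1.32 with an adjusted p of 0.0643.

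Other heat shock factors were expressed before sucrose and stayed level until 20 min. HSF-12 (chromosome 5, positions 25036665 to 25040659) had 8.78, 10.1 and 9.21 FPKM at t0, 10.5, 7.32 and 8.49 FPKM at t20, and 19.4, 19.0 and 17.8 FPKM at t40. The t0 and t20 libraries overlapped, and the 3 at t40 stood apart with a log2 fold change of 0.93 ± 0.17 against t0 (adjusted p = 0.0056). HSF-10 was alike, with 1.83, 2.03 and 0.711 FPKM at t0, 1.46, 1.78 and 1.93 FPKM at t20, and 5.09, 4.8 and 4.83 FPKM at t40 (log2 fold change 1.27 ± 0.22 at t40, adjusted p = 0.00491). RefSeq lists HSF-10 as a long noncoding RNA rather than a protein-coding gene. The 18 that rose had control means of 0 to 9.53 FPKM.

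The other 12 heat shock factors that rose had log2 fold changes of 0.76 (HSF-20) to 1.84 (HSF-13). HSF-13 had 0.833, 4.33 and 0.602 FPKM at t0, 2.05, 3.62 and 6.68 FPKM at t20, and 8.01, 6.78 and 9.27 FPKM at t40, with control library 2 above the other controls. HSF-32 had 10.5, 5.94 and 11.4 FPKM at t0, 20.3, 6.71 and 25.1 FPKM at t20, and 21.9, 30.7 and 38.2 FPKM at t40 (1.62 ± 0.43, adjusted p = 0.0258). At t20 it was above the controls in libraries 4 and 6 and within them in library 5. HSF-01, in contrast, had no t20 library above its highest control, with 14.5, 6.33 and 7.72 FPKM at t0, 12.2, 3.74 and 9.93 FPKM at t20, and 19.2, 30.4 and 38.8 FPKM at t40 (1.56 ± 0.42, adjusted p = 0.0272). HSF-09 and HSF-36 kept their calls whichever library was omitted, the one with 9.85, 9.56 and 10.2 FPKM at t40 and 5.79, 4.73 and 4.27 FPKM at t0, the other, a gene of low level, with 1.29, 1.81 and 3.21 FPKM at t40 and 0.188, 0.0627 and 0 FPKM at t0. HSF-20 and HSF-28 lost the call with quantile normalization and on named transcripts alone. The rest (HSF-11, HSF-14, HSF-18, HSF-25 and HSF-31) had values of 0.79 to 1.22, and each lost its call without at least 1 library.

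**Figure D2:**
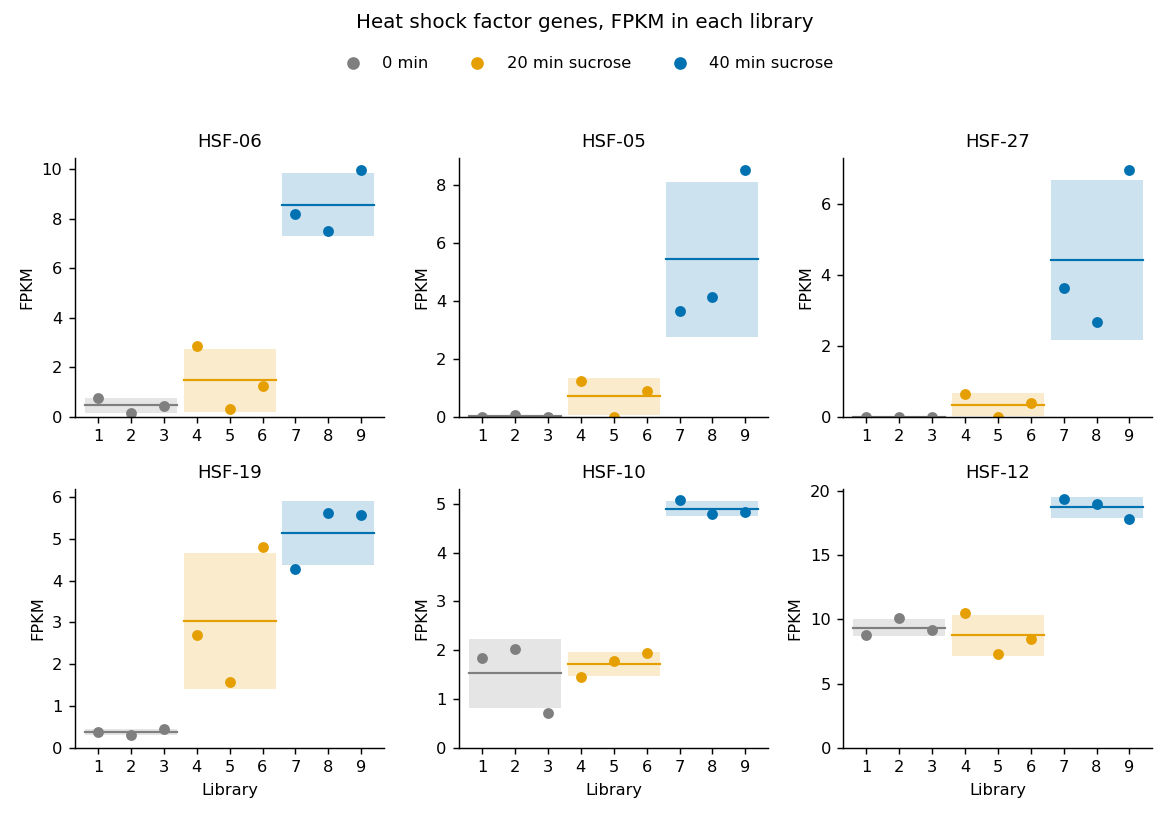
FPKM of 6 heat shock factor genes in each of the 9 libraries (grey 0 min, orange 20 min, blue 40 min), with the group mean as a line and 1 SD as a band, clipped at 0. HSF-06, HSF-05, HSF-27, HSF-10 and HSF-12 have their 3 highest values in libraries 7 to 9, and HSF-19 is above the controls in libraries 4 to 9.

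The most abundant heat shock factor gene did not pass. HSF-35 had 67.9, 44.4 and 45.7 FPKM at t0, 33.8, 20.7 and 40.1 FPKM at t20, and 48.8, 69.4 and 58.8 FPKM at t40, where the t40 libraries overlapped the controls (log2 fold change 0.17 ± 0.27, adjusted p = 0.666). Its 3 t20 libraries were all below the controls, without passing the test (-0.75, adjusted p = 0.207).

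Chaperones, which heat shock factors are known to drive, passed in both directions. Of 18 genes with HSP symbols 9 could be tested, and at t40 1 (11.1%, where 14.7% of all genes were) was higher (HSP90A1, log2 fold change 0.90 ± 0.21) and 2 (22.2%, where 8.86% of all genes were) lower (HSP90-1, -0.82 ± 0.26, and HSP40.1, -0.88 ± 0.24) than at t0. The median log2 fold change of the 9 was -0.52, and 9 of the 18, mostly small heat shock proteins, stayed under the level needed for the test. The summed FPKM of the 18 was 251 to 372 at t40 and 442 to 678 at t0, so the t40 libraries were all below the controls. Most of that sum came from HSP90-1 (151 to 232 FPKM at t40, 282 to 451 at t0) and HSP90-2 (80.4 to 118 FPKM at t40, 130 to 196 at t0). Of the 9 tested, 3 had a positive log2 fold change at t40 and 6 a negative one. HSP90A1 reached an FPKM of 1 in no control and entered the test through libraries with sucrose, in which it was high.

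SCOF-1, a C2H2 zinc finger protein named as a soybean cold-inducible factor, had the largest change of all members on the log2(FPKM + 1) scale, which understates the change of low genes such as DREB1-like and HSF-05. The gene (chromosome 17, positions 39225558 to 39226704) had 3.41, 2.59 and 6.24 FPKM at t0, 50.4, 11.3 and 71.0 FPKM at t20, and 44.8, 94.0 and 102 FPKM at t40. Both groups with sucrose lay above all controls, with library 5 the lowest of them. The log2 fold change was 3.98 ± 0.60 at t40 (adjusted p = 0.00256) and 2.88 ± 0.60 at t20, where the adjusted p was 0.0556.

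DREB genes, whose products bind the promoters of cold and drought genes, passed as higher in 3 of 5 at t40 and as lower in none. DREB1-like (chromosome 9, positions 37433299 to 37434492) had 0.144, 0.072 and 0.202 FPKM at t0, 5.27, 1.32 and 9.61 FPKM at t20, and 3.35, 4.52 and 7.48 FPKM at t40. The t20 and t40 libraries overlapped each other and not the controls. Its log2 fold change was 2.37 ± 0.47 at t40 (adjusted p = 0.0082) and 2.24 ± 0.47 at t20 (adjusted p = 0.0556). DREB5 rose at t40 (3.55 ± 0.95 FPKM, against 1.01 ± 0.49 FPKM at t0, SD, n = 3 each, adjusted p = 0.0193), and so did DREB1 (24.4 ± 2.84 FPKM, against 10.6 ± 3.90 FPKM at t0, adjusted p = 0.0468). The call on DREB1 was lost with both other scalings and held in 3 of the 9 fits without 1 library (adjusted p = 0.141 without library 2). That on DREB5 held in 6 of the 9 (adjusted p = 0.0733 without library 8). The most abundant of the family, DREB3, had 118, 140 and 102 FPKM at t40 and 84.3, 52.2 and 83.4 FPKM at t0 and did not pass (adjusted p = 0.124). Of 6 cold and drought genes tested (COR, ERD, RD and LEA symbols), 2 (33.3%, where 14.7% of all genes were) were higher at t40 and none lower. The median log2 fold change of the 6 was 0.11, beside 0.06 over all genes.

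Among ethylene response factors 2 of 4 were higher at t40. ERF7 (chromosome 7, positions 3682787 to 3686184), abundant in every library, had 156, 138 and 147 FPKM at t0, 275, 180 and 259 FPKM at t20, and 292, 270 and 257 FPKM at t40. All libraries with sucrose lay above all controls, and the log2 fold change at t40 was 0.89 ± 0.21 (adjusted p = 0.0153). ERF6 had 9.05, 8.81 and 17.7 FPKM at t0, 42.1, 18.7 and 59.5 FPKM at t20, and 27.6, 38.6 and 43.6 FPKM at t40 (log2 fold change 1.59 ± 0.41 at t40, adjusted p = 0.0219). At t20 both genes were above the controls in all 3 libraries, and the adjusted p was 0.145 for ERF7 and 0.092 for ERF6. At t40 the call on ERF7 held in 6 of the 9 fits without 1 library (adjusted p = 0.0632 without library 7). That on ERF6 held in 5 of the 9 (adjusted p = 0.0721 without library 8). ERF3 and ERF5 overlapped the controls at t40.

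Genes of the hormones that act through these factors were looked up by symbol. The 11 jasmonate synthesis genes tested were lipoxygenases (LOX), allene oxide synthases (AOS) and cyclases (AOC). Of these 7 (63.6%) were higher at t40, where 14.7% of all genes were, and none was lower. The median log2 fold change of the 11 was 1.44. Of 4 genes of ethylene synthesis and perception 2 (50%) were higher at t40, the ACC synthases ACS and ACS1. Both had passed at t20 too, where 0.778% of all genes passed as higher. ACS reached an FPKM of 1 in no control and entered the test through libraries with sucrose, so its calls are no support for these counts. The other 2, ETR2 and EIN4, did not pass. ETR2 had log2 fold changes of -0.66 at t20, with all t20 libraries below all controls, and -0.70 at t40 (adjusted p = 0.066). EIN4 had 0.21 at both times.

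Genes with AP2 symbols passed as higher in 2 of 6. AP2-3 had 3.60, 9.16 and 6.73 FPKM at t40 and 2.28, 2.76 and 1.39 FPKM at t0 (log2 fold change 1.2 ± 0.33, adjusted p = 0.0278). AP2-6, a gene of low level, had 1.51, 1.55 and 2.01 FPKM at t40 and 0.309, 0.336 and 0.284 FPKM at t0 (1.03 ± 0.26, adjusted p = 0.0213). Neither overlapped the controls at t40, and AP2-6 lost the call with quantile normalization. The call on AP2-3 held in 6 of the 9 fits without 1 library (adjusted p = 0.106 without library 8). That on AP2-6 held in 4 of the 9 (adjusted p = 0.0644 without library 9). The sum of AP2-8 was lower at t40 without passing (adjusted p = 0.0559), and it says little of AP2-8, since the identifier joins a neighbouring locus and the named AP2-8 rows held at most 0.169 FPKM.

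**Figure D3:**
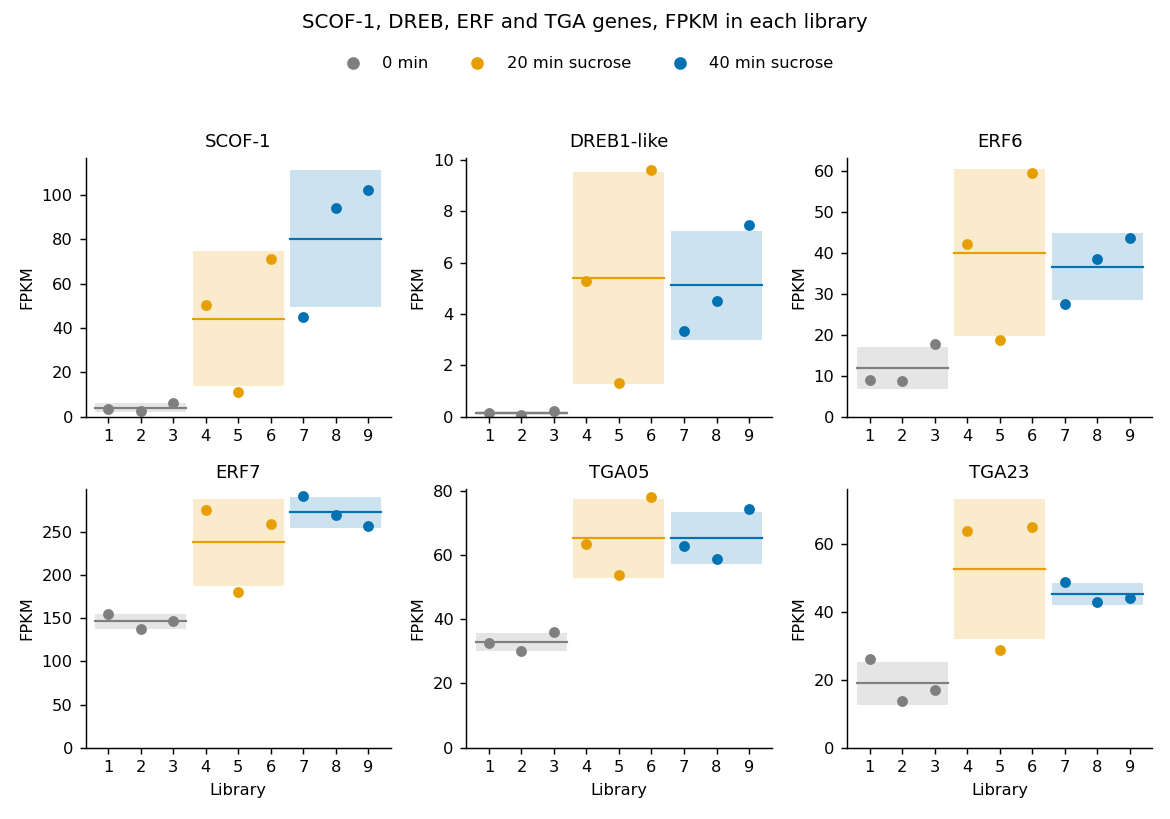
FPKM of SCOF-1, DREB1-like, 2 ERF and 2 TGA genes in each of the 9 libraries (grey 0 min, orange 20 min, blue 40 min), with the group mean as a line and 1 SD as a band, clipped at 0. In all 6 panels libraries 4 to 9 lie above all controls, and library 5 is the lowest at 20 min.

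TGA factors passed as higher in 4 of 13 at t40 and as lower in none, with a median log2 fold change of 0.55. TGA05 (chromosome 3, positions 35451447 to 35454709) had 32.5, 30.1 and 35.9 FPKM at t0, 63.5, 53.8 and 78.1 FPKM at t20, and 62.6, 58.7 and 74.3 FPKM at t40. Its log2 fold change was 0.95 ± 0.19 at t20 (adjusted p = 0.053) and 0.96 ± 0.19 at t40 (adjusted p = 0.00845), with no overlap with the controls at either time. TGA23 (chromosome 18, positions 1527862 to 1534848) had 26.1, 13.8 and 17.1 FPKM at t0, 63.9, 28.9 and 65.0 FPKM at t20, and 48.8, 43.0 and 44.0 FPKM at t40 (1.25 ± 0.32 at t40, adjusted p = 0.023). At t20 TGA23 was above all controls in all 3 libraries and TGA11 was not. TGA11 had 5.18, 4.36 and 4.65 FPKM at t40 and 1.01, 1.34 and 1.84 FPKM at t0 (1.27 ± 0.27, adjusted p = 0.0116). TGA25 had the smallest rise (0.65 ± 0.19, adjusted p = 0.0359). Its call was lost with both other scalings and on named transcripts alone (adjusted p = 0.353). It held in 3 of the 9 fits without 1 library (adjusted p = 0.12 without library 8). The call on TGA23 held in 4 of the 9 (adjusted p = 0.0752 without library 7). Of the 13 tested, 9 lay above all controls in all t40 libraries, where 26.6% of all genes tested did. Of these 9, 4 passed and 5 did not. TGA17, 1 of these 5, had 57.8, 61.8 and 44.9 FPKM at t40 and 42.7, 34.3 and 23.5 FPKM at t0 (adjusted p = 0.0944). The summed FPKM of the TGA genes was 258 ± 2.41 at t40 and 152 ± 19.6 at t0.

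NF-Y subunits passed in both directions. Of 19 NF-YA genes 3 were higher at t40 and none lower, a share of 15.8% beside the 14.7% of all genes. NF-YA01 had 1.95, 1.89 and 1.80 FPKM at t0, 13.3, 2.81 and 6.99 FPKM at t20, and 6.0, 6.67 and 5.29 FPKM at t40 (log2 fold change 1.27 ± 0.38 at t40, adjusted p = 0.0383, not passed with either other scaling). All its libraries with sucrose lay above the controls. NF-YA03 (26.9 ± 7.08 FPKM at t40, 14.1 ± 3.13 FPKM at t0) and NF-YA15 (9.49 ± 1.65 FPKM at t40, 4.86 ± 1.07 FPKM at t0) also rose and were level at t20. NF-YA15 did not pass on its named transcripts alone. NF-YA10 (adjusted p = 0.106 at t40) and NF-YA12 did not pass, although all libraries with sucrose of the one and all but 1 of the other lay above the controls. NF-YA10 reached an FPKM of 1 in no control and entered the test through libraries with sucrose, in which it was high. NF-YA12 had 4.81, 2.49 and 6.1 FPKM at t0, 13.5, 4.5 and 15.9 FPKM at t20, and 8.87, 10.6 and 11.9 FPKM at t40 (1.12 ± 0.41 at t40, adjusted p = 0.0709). Library 5 was again the low one at t20, and it was the 1 library with sucrose within the controls. Of 7 NF-YC genes tested 2 were lower at t40 and none passed as higher, although 5 of the 7 had a positive log2 fold change. The median of the 7 was 0.40 (0.35 for NF-YA). In 4 of the 7 all t40 libraries lay above all controls, as they did in 26.6% of all genes tested. NF-YC12, 1 of these 4, was listed at 0 in every control and entered the test through libraries with sucrose, in which it was high. A difference between NF-YA and NF-YC was not tested. The 2 that fell were the 2 highest of the NF-YC genes in the controls. NF-YC04 had 28.0, 31.3 and 36.6 FPKM at t40 and 43.4, 49.9 and 80.4 FPKM at t0 (-0.80 ± 0.25, adjusted p = 0.0463). NF-YC03 had 19.1, 20.2 and 22.0 FPKM at t40 and 28.3, 29.0 and 49.7 FPKM at t0 (-0.73 ± 0.23, adjusted p = 0.0465). In both genes control library 3 was far above the other controls, and with median-ratio scaling neither passed. No call on these 5 genes held without every single library. Of the 9 fits without 1 library, NF-YA01 passed in 2, NF-YA03 in 5, NF-YA15 in 7, and NF-YC03 and NF-YC04 in 3 each. Without library 8 the adjusted p was 0.115 for NF-YA01 and 0.111 for NF-YA03, without library 9 it was 0.0628 for NF-YA15, and without library 7 it was 0.146 for NF-YC04 and 0.136 for NF-YC03.

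Growth-regulating factors went the other way. At t40, 9 of the 17 tested were lower than at t0 and none was higher, and all 17 had a negative log2 fold change, with a median of -0.86. The count of lower genes was 11 with median-ratio scaling and 14 with quantile normalization. It rested on few libraries, since it was 1 without library 8, 3 without library 2, 3 or 7, and 4 without library 6. The family's summed FPKM was 95.6 ± 19.3 at t40 and 190 ± 33.1 at t0.

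The identifier of GRF18 and GRF19 (chromosome 17, positions 38904572 to 38919933) was the most abundant of the family and the 1 GRF identifier that kept its call whichever library was omitted. It had 32.2, 42.2 and 42.1 FPKM at t0, 23.4, 35.2 and 25.5 FPKM at t20, and 17.3, 14.9 and 22.0 FPKM at t40. The t40 libraries were the 3 lowest and did not overlap the controls (log2 fold change -1.07 ± 0.22, adjusted p = 0.00965). The rows named GRF18 gave 4.67, 4.32 and 6.61 FPKM at t40 and 10.3, 15.6 and 15.8 FPKM at t0, and those named GRF19 gave 12.5, 10.4 and 14.8 FPKM at t40 and 19.0, 25.4 and 25.7 FPKM at t0. Both genes were thus lower in every t40 library than in every control.

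The largest fall was in GRF12 (chromosome 11, positions 38591 to 41590), with 3.63, 6.08 and 9.01 FPKM at t0, 2.12, 5.26 and 3.53 FPKM at t20, and 1.76, 1.15 and 1.90 FPKM at t40 (log2 fold change -1.42 ± 0.32, adjusted p = 0.014). GRF1 had 4.59, 2.68 and 4.05 FPKM at t40 and 8.56, 10.7 and 13.4 FPKM at t0 (-1.32 ± 0.30, adjusted p = 0.0135). GRF13 had 5.76, 4.16 and 7.20 FPKM at t40 and 11.4, 14.4 and 15.6 FPKM at t0 (-1.16 ± 0.28, adjusted p = 0.0175). Without library 8 these 3 did not pass, with adjusted p-values of 0.058, 0.0579 and 0.0731. GRF12 and GRF1 passed in 8 of the 9 fits without 1 library, and GRF13 in 5. The other genes that fell were GRF7, GRF8, GRF10, GRF17 and GRF22, and each lay below all controls in all t40 libraries. Of these GRF17 had 1.66, 1.16 and 2.19 FPKM at t40 and 3.35, 6.35 and 4.65 FPKM at t0 (-1.10 ± 0.33, adjusted p = 0.04), and the most abundant, GRF22, had 16.4, 14.6 and 21.3 FPKM at t40 and 23.8, 28.1 and 36.6 FPKM at t0 (-0.72 ± 0.21, adjusted p = 0.0346). A further 5 GRF genes that did not pass also lay below all controls at t40. In all, 14 of the 17 tested did so, where 20.8% of all genes tested did. GRF6, GRF20 and GRF21 overlapped the controls. GRF22 and GRF21 are neighbours on chromosome 14, and GRF21 did not pass (-0.41, adjusted p = 0.167).

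The libraries behaved alike across the family. Library 8 was the lowest of all 9 in 11 of the 17 genes, and library 5 was the highest of the 3 at t20 in 17 of 17. The 3 CYCB1 cyclins of dividing cells were summed to 95.4, 97.1 and 123 FPKM at t40 and 124, 141 and 139 FPKM at t0, and none of them passed. At t20 their sum was 100 in library 4, 147 in library 5 and 114 in library 6, so that library 5 was again the highest. The part of dividing cells in the GRF values was not tested.

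**Figure D4:**
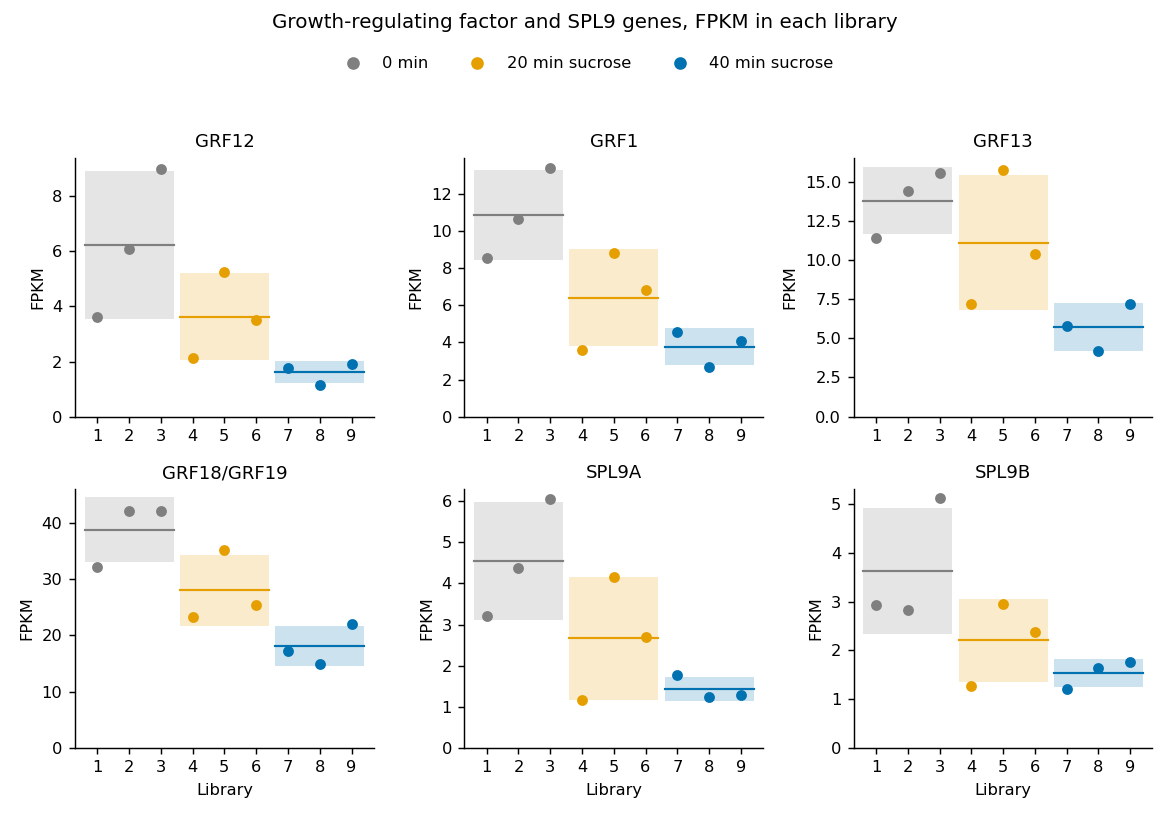
FPKM of 4 growth-regulating factor identifiers and 2 SPL9 genes in each of the 9 libraries (grey 0 min, orange 20 min, blue 40 min), with the group mean as a line and 1 SD as a band, clipped at 0. Libraries 7, 8 and 9 lie below libraries 1, 2 and 3 in all 6 panels, and library 5 is the highest at 20 min.

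SPL9 genes also passed only as lower, in 2 of 4. SPL9A had 1.77, 1.25 and 1.29 FPKM at t40 and 3.21, 4.38 and 6.06 FPKM at t0 (log2 fold change -1.16 ± 0.31, adjusted p = 0.0253). SPL9B had 1.2, 1.63 and 1.77 FPKM at t40 and 2.94, 2.82 and 5.12 FPKM at t0 (-0.84 ± 0.26, adjusted p = 0.041). The call on SPL9A held in 4 of the 9 fits without 1 library (adjusted p = 0.0851 without library 8). That on SPL9B held in 3 of the 9 (adjusted p = 0.135 without library 7). SPL9C and SPL9D did not pass, with values of -0.11 and -0.50. At t20 library 4 was the lowest of the 3 in 4 of 4 SPL9 genes.

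Among 12 gibberellin genes tested, a hormone that drives root growth, 3 were higher (25%) and 1 was lower (8.33%) at t40, where 14.7% and 8.86% of all genes were. The 3 that rose, GA2OX1, GA2OX5 and GA2OX6, encode enzymes that inactivate gibberellin, and the 1 that fell, GA20OX7, encodes an enzyme of its synthesis. Other genes of synthesis did not pass and had values of both signs (GA3OX3 0.92, GA20OX3 -0.51 and GA3OX1 -1.44). GA2OX1 had 11.4, 16.0 and 19.7 FPKM at t40 and 1.85, 2.31 and 1.40 FPKM at t0. GA20OX7 had 1.18, 9.52 and 1.41 FPKM at t40 and 52.5, 19.4 and 9.33 FPKM at t0, where library 8 overlapped the controls.

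None of the 6 bHLH genes passed at either time, although their fold changes were among the largest. BHLH56 (chromosome 13, positions 41012245 to 41013936) had 155, 99.4 and 27.8 FPKM at t0, 8.66, 11 and 5.88 FPKM at t20, and 8.90, 61.7 and 16.3 FPKM at t40. Its t20 libraries were all below the controls and closer to each other than the controls were. The log2 fold change was -3.05 ± 0.71 at t20 (adjusted p = 0.0746) and -1.80 ± 0.71 at t40 (adjusted p = 0.0905). BHLH300 and BHLH320, neighbours on chromosome 3, were the most abundant. BHLH300 had 219, 102 and 48.3 FPKM at t0, 49.6, 38.1 and 35.7 FPKM at t20, and 63.6, 127 and 53.8 FPKM at t40.

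BHLH300, BHLH320, BHLH322, BHLH56 and BHLH57 shared the order of their libraries at t0 and the highest library at t40, but not the order at t20. In 5 of 5 library 1 was the highest control and library 8 the highest at t40, and in 4 of 5 all t20 libraries lay below all controls, where 7.73% of all genes did. For BHLH56 the controls alone spanned 27.8 to 155 FPKM. IRT, an iron transporter gene looked at after these values were seen, had 68.2, 43.5 and 19.7 FPKM at t0, 6.67, 6.39 and 8.56 FPKM at t20, and 21.7, 103 and 38.5 FPKM at t40. It had the same order of libraries at t0 and the same highest library at t40 (log2 fold change -2.29 ± 0.54 at t20, adjusted p = 0.077). BHLH322 is joined with a neighbouring locus, and its named rows alone had 1.49, 2.49 and 3.34 FPKM at t20 and 18.2, 2.31 and 7.75 FPKM at t0, which overlap. The sixth gene, BHLH59, was higher at t20 without passing (1.07, adjusted p = 0.277).

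**Figure D5:**
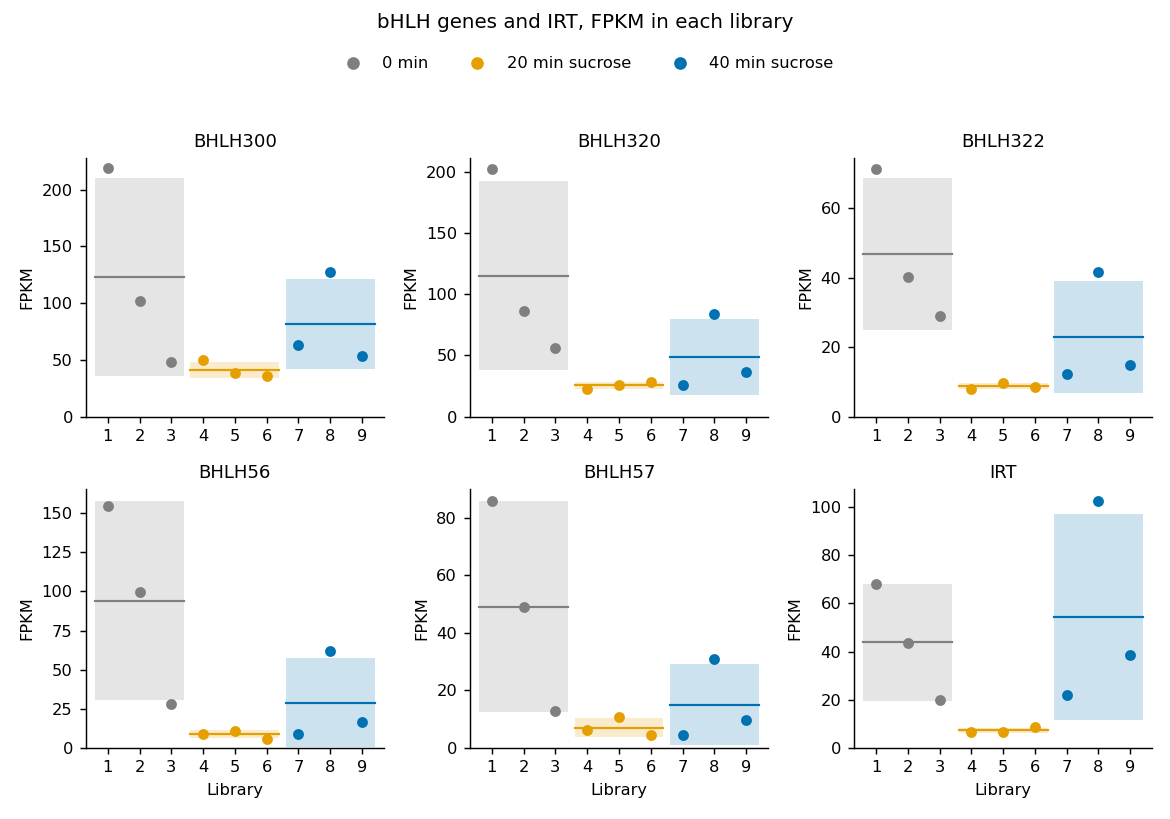
FPKM of 5 bHLH genes and of IRT in each of the 9 libraries (grey 0 min, orange 20 min, blue 40 min), with the group mean as a line and 1 SD as a band, clipped at 0. In all 6 panels library 1 is the highest control and library 8 the highest at 40 min, and libraries 4 to 6 lie low and close together.

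The remaining names gave little. ZFP3, a zinc finger gene, rose at t40 (8.98, 9.46 and 9.05 FPKM at t40 and 6.43, 6.38 and 4.65 FPKM at t0, adjusted p = 0.0368). Its call was lost with quantile normalization and held in 3 of the 9 fits without 1 library (adjusted p = 0.12 without library 8). ZFP1, the most abundant of the 3 ZFP genes tested, overlapped the controls, and DOF10 did too. The symbols that begin with SBP name no SBP-box factor in soybean (a sucrose-binding protein, a seed biotin protein and a proline-rich protein). Of these the proline-rich protein gene SBPRP had 3.69, 3.12 and 1.73 FPKM at t40 and 0.730, 1.58 and 0.979 FPKM at t0 and did not pass (adjusted p = 0.108), and SBP2 and SBP65 stayed under an FPKM of 1.

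At 20 min the members had moved little by the test. HSF-19 was the 1 member that was higher and none was lower, where 0.778% and 0.162% of all genes passed. At an unadjusted p under 0.05, 18 members were higher and 12 lower, where 11.3% and 5.85% of all genes were. With the fold change limit as well, 9 were higher and 5 lower, where 5.34% and 1.27% were. All 3 libraries lay above the controls for 14 members and below them for 9, where 10.6% and 7.73% of all genes did so. Without library 5 17 members were higher at t20, among them SCOF-1, DREB1-like, ERF6, ERF7, NF-YA01, TGA05, TGA11 and TGA23, and 3 were lower. HSF-19 did not pass in the fits that left out any other single library.

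Library 5 stood nearer the controls than libraries 4 and 6. For the 34 members that were higher at t40, the median position between the t0 mean (0%) and the t40 mean (100%) was 68.1% in library 4, 5.98% in library 5 and 63.7% in library 6. For the 13 that were lower it was 93.1%, 14.5% and 46.2%. Heat shock factors gave lower values, with 48.0%, -0.525% and 50.1% for the 18 that rose, and the 4 TGA genes that rose stood at 88.4%, 30.6% and 112%. All these members were chosen by their t40 values, which also set the 100% point, so the t20 positions depend in part on that choice. Of the 18, HSF-27, HSF-05 and HSF-06 would not have been tested without their t40 libraries. In 4 of the 34 the t20 mean was above the t40 mean. Green tissue genes were also lowest at t20 in library 5 (summed FPKM 168, against 254 in library 4 and 695 in library 6), and 1 of them, RCAALPHA, passed as higher at t20. All 6 green tissue genes tested had a positive log2 fold change at t20, with a median of 1.54, and 5 of the 6 had all t20 libraries above all controls, as 10.6% of all genes did. RCAALPHA and RCA14 reached an FPKM of 1 in t20 libraries only, and RCA11 and RBCS1 in libraries with sucrose only. They entered the test through libraries in which they were high. Their rises and the call on RCAALPHA are thus no support for these counts. The part of green tissue RNA in the t20 values was not tested.

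Between 20 and 40 min 5 members were higher at t40 and none was lower, where 1.41% and 0.0763% of all genes passed. The 5 were all heat shock factors, HSF-06 (log2 fold change of t40 against t20 2.09 ± 0.34, adjusted p = 0.0264), HSF-27 (1.96 ± 0.29, adjusted p = 0.0199), HSF-05 (1.91 ± 0.33, adjusted p = 0.0318), HSF-10 (1.12 ± 0.22, adjusted p = 0.0436) and HSF-12 (1.03 ± 0.17, adjusted p = 0.0264). For each of them the t40 libraries all lay above the t20 libraries, as they did for 30 members, and 7 members lay below (15.9% and 9.81% of all genes). HSF-27 had entered the test through its t40 libraries alone, and HSF-05 and HSF-06 would not have been tested without theirs. The calls on HSF-27, HSF-05 and HSF-06 are thus no support for this count. None of the 5 passed without library 8 or without library 9. At an unadjusted p under 0.05, 24 members were higher and 7 lower, where 11.4% and 6.51% of all genes were. With the fold change limit as well, 10 were higher and 0 lower, where 4.51% and 0.668% were.

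Other families named by symbol are given for their values at t40. Of 50 WRKY genes tested 31 (62%) were higher and none lower, and of 30 NAC genes 18 (60%) and 0. Of 50 MYB genes 18 (36%) were higher and 1 (2%) lower, and of 74 bZIP genes 11 (14.9%) and 3 (4.05%). Of all genes tested 14.7% were higher and 8.86% lower, so the share of higher bZIP genes was near that of all genes. Their median log2 fold changes were 1.39, 1.09, 0.68 and 0.16, set beside 0.83 for HSF and -0.86 for GRF. The difference between families was not tested.

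Of the 47 members that passed at t40, all had groups that did not overlap, and 13 kept their call whichever of the 9 libraries was omitted. These were HSF-05, HSF-06, HSF-09, HSF-10, HSF-12, HSF-19, HSF-27, HSF-36, SCOF-1, DREB1-like, TGA05 and TGA11, which rose, and the identifier of GRF18 and GRF19, which fell. Among them HSF-05, HSF-06, HSF-19, HSF-27, HSF-36 and DREB1-like had entered the test through libraries with sucrose only.

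A further 26 members were not tested for want of expression, among them 7 of 14 NF-YC genes, 6 of 38 heat shock factors and 4 of 21 growth-regulating factors. HSF-22, HSF-34, NF-YC05 and NF-YC09 were listed at 0 in all 9 libraries. Just inside the limit, with an FPKM of at least 1 in exactly 3 libraries, were HSF-27 and NF-YC12, which had 0.801, 0.774 and 1.51 FPKM at t40, was listed at 0 in every control and did not pass. Just outside it, with 2 such libraries, were HSF-07, at up to 1.15 FPKM, and ZFP6, at up to 1.31 FPKM.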

How the data were processed

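RNA-seq of 9 libraries was analysed from the 1 deposited table of 119600 transcripts. The authors demultiplexed with bcl2fastq 2.20, checked reads with FastQC, trimmed with Trimmomatic 0.32, aligned with HISAT2 to Glycine_max_v4.0, assembled with StringTie and extracted FPKM with Ballgown. The deposited FPKM values are scaled for transcript length and library size, so depth is not held in them. The 9 coverage columns of the table were not used. Columns name the time and a library number but no replicate number.

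FPKM was summed by gene identifier. Genes that reached an FPKM of 1 in 3 or more of the 9 libraries were tested on log2(FPKM + 1) with limma 3.58.1 (R 4.3.3, lmFit, eBayes with a variance trend), with Benjamini-Hochberg adjustment over 32763 genes. In simulated data of 32763 genes for t40 against t0, 118 of 200 genes changed by 1.5 (log2) were recovered (59%), with 3 false calls among the unchanged genes. The noise was drawn independently for each gene, and the changed genes were taken above a minimum mean level. These rates therefore do not carry over to genes of low FPKM or to shifts that many genes of a library share.

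Members, lists and tests were chosen with earlier results of these data known. Named are up to 3 members per family and direction past the threshold at t40, all that passed at t20 or between t40 and t20, the most abundant of each family and those with joined identifiers, at most 30 per comparison. Further members, IRT and list genes were named after their values were seen. For 40 members the sum includes rows without a gene name, and 3 identifiers join more than 1 annotated gene. All 146 symbols were found in the RefSeq gene table of Glycine_max_v4.0, which gave positions. Promoter and protein sequences were not used here.

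Alternatives were pseudocounts of 0.1 and 0.5, an FPKM minimum of 5 or none, median-ratio scaling, quantile normalization, named transcripts only, no variance trend, only the groups compared, other call rules, and leaving out each library.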

Additional observations from a re-analysis of the deposited data

Results flagged for a closer look

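HSF-10 and HSF-12 differed between the 2 times of sucrose beyond the spread of the libraries in the direct test of t40 against t20 (limma, adjusted over 32763 genes). HSF-10 was higher at t40 than at t20 by 1.12 on the log2 scale and HSF-12 by 1.03, in 3 of 3 libraries each. HSF-06, HSF-05 and HSF-27 had values of 2.09, 1.91 and 1.96, given as a description. HSF-27 reached the level needed for the test in its t40 libraries alone, and HSF-06 and HSF-05 would not have been tested without theirs. Each of these heat shock factors lost the call without library 8 and without library 9.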

How the results depend on the processing

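No paired analysis was possible because the columns of the table carry no replicate number. The alternatives with all libraries changed counts of passing members as follows. At t20 the 1 higher member became 0 with an FPKM minimum of 5, with no filter, with median-ratio scaling, with quantile normalization, on named transcripts only and with only the groups compared, and it became 5 and 4 with pseudocounts of 0.1 and 0.5 and 9 by an unadjusted p under 0.05 with an absolute log2 fold change of 1 or more. The lower members, 0, became 1 with the FPKM minimum of 5 and with either pseudocount (BHLH322 each time), and 5 by the unadjusted rule. At t40 the 34 higher became 22 with the FPKM minimum of 5, and the 13 lower became 6 with no filter, 20 with quantile normalization and 8 when a log2 fold change of 1 or more was asked for beside the adjusted p. Between t40 and t20 the 5 higher became 1 with the FPKM minimum of 5, 2 with no filter, 1 with only the groups compared, 0 and 3 with pseudocounts of 0.1 and 0.5, and 10 by the unadjusted rule. The 18 HSF genes higher at t40 became 10 with the FPKM minimum of 5, where fewer genes were tested, and the 9 GRF genes lower became 5 with no filter and 14 with quantile normalization. Leaving out 1 library at a time gave 0 to 17 higher and 0 to 3 lower members at t20, 13 to 43 higher and 3 to 18 lower at t40, 0 to 6 higher for t40 against t20, 8 to 20 HSF genes higher and 1 to 12 GRF genes lower. The cause was not tested. Of the named members' values, 544 kept direction and side of the threshold, 157 kept direction and lost the threshold (105 of them with a library left out), 4 gained it, and none changed direction. Of the 47 members that passed at t40, 42 also did with median-ratio scaling and 40 with quantile normalization. Precision is limited by 3 plants a time, and members that stayed under the FPKM minimum were not tested.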
